A study of Mus musculus with 24 samples.

Results

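The acute phase and complement genes examined here were 9 protein-coding mouse genes, Serpina3n, C3, C4b, Cfb, Lrg1, Cp, Fga, Fgb and Fgg. An m6A peak was counted for a gene if it overlapped one of its exons on the same strand in the GENCODE M21 annotation of GRCm38 (mm10). Of the 91013 peaks listed in 12 kidneys, 50 met this rule, at 18 loci of 16815, a locus being a stretch of same-strand peaks that share at least 1 base over all kidneys. They lay in 6 of the 9 genes, and C4b, Cfb and Lrg1 had none. Peaks were listed in 7777 of 21951 protein-coding genes in all (35.4%). The genes were chosen by the kidneys in which their peaks are listed, Serpina3n for being listed in IG and in no control and the others for contrast, so their values are a description, and where a member locus is called by the rule applied to all loci, the call is read as part of that description and supports nothing.

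The study asked how m6A in kidney mRNA differs after cisplatin, a platinum drug that injures the proximal tubule, and whether berberine, a plant alkaloid, changes that. Male C57BL/6 mice aged 8 weeks fell into 3 groups of 4, and each group has 4 kidney samples. Controls received vehicle in place of berberine for 14 days and then vehicle in place of cisplatin. The injury group (IG) received vehicle for 14 days and then 1 dose of cisplatin at 20 mg/kg, and the treatment group (TG) had the same cisplatin dose after 14 days of berberine at 20 mg/kg a day. Kidneys were taken 72 h later, and no gene was altered in any group. The comparisons are named IvC (IG against control), TvI (TG against IG) and TvC (TG against control).

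The acute phase response is the change in plasma proteins that follows tissue damage or infection. Interleukin-6 and related cytokines act on the liver, which then releases protease inhibitors, fibrinogen, ceruloplasmin and complement factors, and injured kidney epithelium can express some of these genes itself. N6-methyladenosine (m6A) is a methyl group that a nuclear enzyme complex places on adenosines of mRNA, mostly within the RRACH motif (A or G, A or G, A, C, then A, C or T) and often in long exons. In MeRIP-seq, RNA fragments are pulled down with an antibody against m6A and sequenced, and stretches with more reads than the background model expects are listed as peaks. Each peak here has a score, -10 times the log10 of its p-value. The score grows with read number as well as with enrichment, so it does not measure the fraction of methylated transcripts.

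The exons on which the results turn are shown first. Where the coding part of the exon was longer than 300 bases, the 300-base coding window with the most RRACH motifs is given. Bases are the GRCm38 reference on the gene's strand, 5′ to 3′, and capitals mark RRACH motifs, which run together where they touch. Serpina3n exon 2 was the exon listed in injured kidneys, and its window is chr12:104408974-104409273 (+) with 9 motifs.

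Serpina3n exon 2: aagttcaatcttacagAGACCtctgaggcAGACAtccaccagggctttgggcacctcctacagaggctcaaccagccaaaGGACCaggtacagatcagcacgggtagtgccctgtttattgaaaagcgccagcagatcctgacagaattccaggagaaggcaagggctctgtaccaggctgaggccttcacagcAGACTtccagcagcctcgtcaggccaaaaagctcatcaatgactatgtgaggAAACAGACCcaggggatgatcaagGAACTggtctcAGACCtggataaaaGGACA

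Fga exon 5 was listed in every control kidney, and its window is chr3:83031068-83031367 (+) with 14 motifs.

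Fga exon 5: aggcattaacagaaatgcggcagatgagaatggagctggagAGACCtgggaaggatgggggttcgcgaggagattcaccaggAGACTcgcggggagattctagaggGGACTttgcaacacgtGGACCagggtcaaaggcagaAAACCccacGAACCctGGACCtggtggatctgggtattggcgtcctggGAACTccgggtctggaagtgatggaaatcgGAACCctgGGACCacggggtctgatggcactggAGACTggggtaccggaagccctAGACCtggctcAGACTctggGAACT

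The 2 Fgg exons listed in 3 TG kidneys each are given whole, exon 3 at chr3:83008374-83008557 (+) with 7 motifs and exon 6 at chr3:83010456-83010589 (+) with 2.

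Fgg exon 3: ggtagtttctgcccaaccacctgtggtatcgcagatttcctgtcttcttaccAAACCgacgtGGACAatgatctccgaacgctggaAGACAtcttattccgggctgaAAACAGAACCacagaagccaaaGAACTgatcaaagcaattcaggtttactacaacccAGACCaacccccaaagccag

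Fgg exon 6: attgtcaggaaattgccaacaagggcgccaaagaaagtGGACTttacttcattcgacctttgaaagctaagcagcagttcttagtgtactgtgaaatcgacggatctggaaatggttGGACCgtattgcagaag

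Lrg1 exon 2 is shown for contrast, as a long coding exon with no listed peak, and its window is chr17:56120325-56120624 (-) with 5 motifs.

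Lrg1 exon 2: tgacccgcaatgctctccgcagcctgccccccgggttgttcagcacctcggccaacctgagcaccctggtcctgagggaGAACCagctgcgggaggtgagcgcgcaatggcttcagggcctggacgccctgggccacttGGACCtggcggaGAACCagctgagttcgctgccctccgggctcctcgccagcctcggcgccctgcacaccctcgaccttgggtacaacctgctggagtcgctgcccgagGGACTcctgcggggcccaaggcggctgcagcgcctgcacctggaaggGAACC

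The 12 lists differed in length, which bears on any count of peaks. Control kidneys had 8531 to 9579 peaks, IG kidneys 6745 to 8357 and TG kidneys 5901 to 6753, and read depth was not analysed here. The scores ran from 13.02 to 3233.06, and 1086 peaks shared the value 3100 exactly. IG 3 had the longest list of its group, and 6.43% of its loci were listed in that kidney alone, against 2.70% to 4.02% in the other IG kidneys. A locus or gene was called gained or lost where 4 of 4 kidneys of one group and 0 of 4 of the other had a peak, for which Fisher's exact test, two-sided, gives p = 0.0286, the lowest that 4 against 4 allows. By that rule 655 loci of 16072 were called in IvC, 89 of 13367 in TvI and 718 of 15169 in TvC. None passed after Benjamini-Hochberg adjustment over all loci in Fisher's exact test, where the lowest adjusted p was 0.701 in IvC, 1 in TvI and 0.604 in TvC.

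Serpina3n, which encodes an extracellular inhibitor of serine proteases such as leukocyte elastase, had the peak that followed the injury label most closely. Its second exon (chr12:104408654-104409307, 654 nt, 637 of them coding and the start codon among them) was listed in no control, in 4 of 4 IG kidneys and in 4 of 4 TG kidneys. The scores in IG were 1854.96, 1321.64, 448.54 and 980.64 in kidneys 1 to 4. In TG they were 503.86, 286.03, 1079.17 and 1610.08. The IG and TG scores overlapped, with means of 1151 ± 591 (SD, n = 4) and 870 ± 596 (SD, n = 4), and the lowest score in either group came from TG 2. Within its own list the peak stood between the 81.0 and the 96.8 percentile. All 8 peaks began and ended exactly at the exon's borders.

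**Figure D1:**
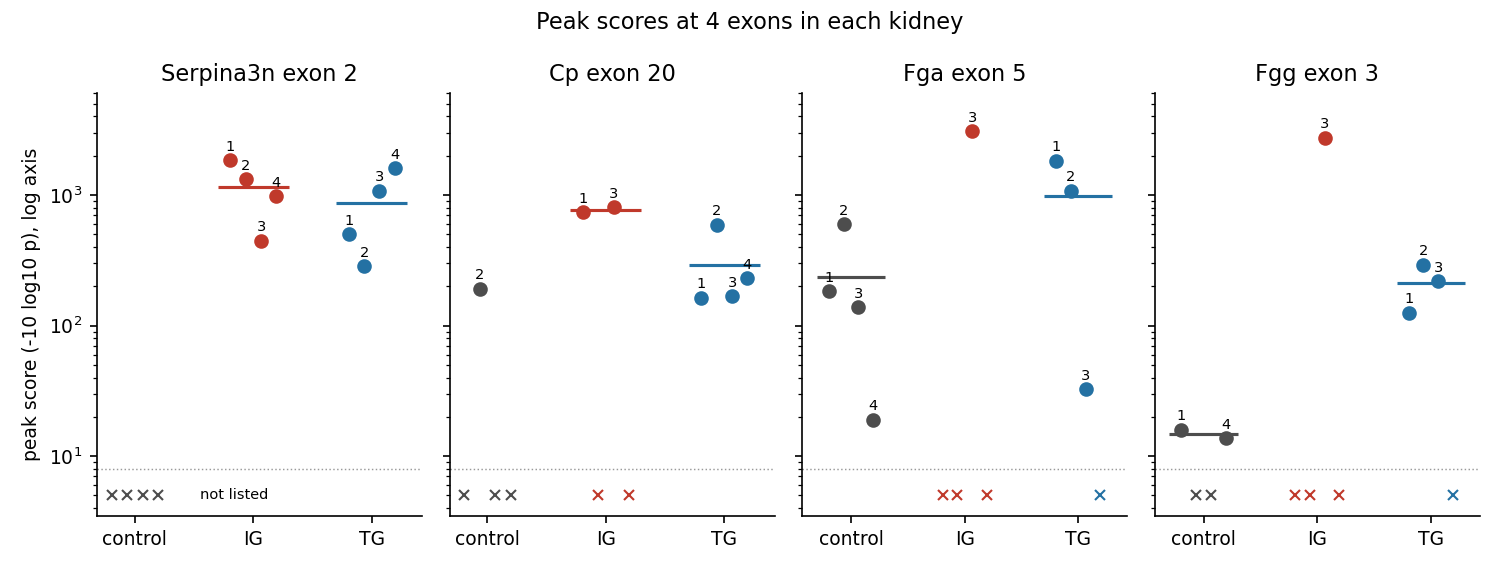
Peak score (-10 log10 p, log axis) at Serpina3n exon 2, Cp exon 20, Fga exon 5 and Fgg exon 3 in each kidney, numbered within its group; crosses below the dotted line are kidneys with no listed peak, and bars are means of the listed scores. Serpina3n exon 2 was absent from the 4 controls and listed in all 8 cisplatin kidneys, whereas Fga exon 5 was listed in 4 controls but in IG 3 alone among IG kidneys.

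The call at Serpina3n, 1 of 16 member loci with a peak in either group, stood against a background of 1.35% of loci gained and 2.73% lost in IvC. In TvC, where the exon was the only one of 10 member loci called, 1.00% of all loci were gained and 3.73% lost. In TvI none of the 17 member loci tested was called, against 0.217% gained and 0.449% lost among all loci. With every list cut to the length of the shortest, the balance of this background turned. It became 56 loci gained and 29 lost in TvI, 244 and 202 in TvC, and 225 and 221 in IvC. The member calls were the same, though a cut of low scores could not remove the high-scoring peaks of Serpina3n exon 2. There were 84 loci with the pattern 0, 4 and 4 kidneys in control, IG and TG, and Serpina3n exon 2 had the second highest mean score among them, 1011, after a locus of Mettl26 at 1638. The next was in Scaf4, which encodes a binding partner of RNA polymerase II, at 850.

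The rest of the Serpina3n transcript was almost without listed peaks. Exon 5 (918 nt, with the stop codon and the 3′ UTR) was listed in TG 4 alone, at a score of 16.03, near the lower limit of the lists. The study reports a site with raised methylation in IvC within this exon, called with diffReps, which was not run here. Exons 1, 3 and 4 had no peak in any kidney, and the longest of them has 274 nt. Exon 2 held 13 RRACH motifs on the coding strand and 10 on the opposite strand. Of 835 other loci within 10% of its length, 30.7% had at least 13, and their median was 10. It had no GGACT, the form often found at m6A sites, which 56.4% of those loci had.

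Mouse Serpina3 genes form a cluster of near copies on chromosome 12, and reads could in principle be shared between them. No 100-base stretch of any Serpina3n exon occurred in a transcript of another gene. Exon 2 was closest to Serpina3c, at 89.7% identity over 653 aligned bases, and next to Serpina3m at 89.2% over 655. Both of these genes had a peak in 3 IG kidneys each and in no control or TG kidney. The Serpina3c peaks were in IG 2, 3 and 4 with scores of at most 20.27, and the Serpina3m peaks were in IG 1, 2 and 3 with scores of at most 150.66. The other 7 annotated paralogs had no peak, and neither did Serpina3h, which is annotated as a pseudogene.

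Markers of injury and of other cell types were listed beside Serpina3n. In the injured tubule list 3 of 6 genes had a peak: Havcr1 (kidney injury molecule 1) in 0 control, 4 IG and 3 TG kidneys, Sox9 in 0, 4 and 4, and Vcam1 in 4, 3 and 3. Between 2 and 3 of these genes were listed in each IG and each TG kidney, and 1 in each control. In the leukocyte list 4 of 10 genes had a peak, with 0 to 1 per control, 1 per IG kidney and 1 to 3 per TG kidney. Itgam, an integrin of myeloid cells, was listed in 0, 4 and 4 kidneys, whereas Cd68, Csf1r, Adgre1 and Lyz2 had none in the 12. In the kidney tubule list 2 of 8 had a peak, Slc12a1 in 1, 4 and 0 kidneys and Cubn in 0, 0 and 1, so that Lrp2, Slc34a1 and Umod, defining genes of the labelled tissue, had none. The glomerulus list had a peak in 3 of 4 genes, among them Nphs1 in 1, 4 and 2 kidneys, the endothelium list in 3 of 5 and the fibroblast list in 2 of 4, with no gene called. Over all genes 1.90% were gained and 3.16% lost in IvC, 0.255% and 0.510% in TvI, and 1.51% and 4.38% in TvC. A peak needs methylation as well as RNA, so an unlisted marker does not mean absent RNA. In whole kidney, more RNA per cell and more cells of a type cannot be told apart, and the part of either in the Serpina3n peak was not tested.

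By Pearson correlation of log10(score + 1) over the 12 kidneys, with unlisted kidneys at 0, the loci most like Serpina3n exon 2 were in Acbd3 (r = 0.991), Golm1 (0.991), Ivl (0.991), Scaf4 (0.990) and Incenp (0.988). Acbd3 reached this with a peak in all 12 kidneys, at 532.34 to 658.92 in controls, 2678.39 to 3111.42 in IG and 2533.29 to 3051.88 in TG. The other 4 had the same 0, 4 and 4 kidneys as Serpina3n. The 12 points fall into controls and cisplatin kidneys, which sets these coefficients.

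**Figure D2:**
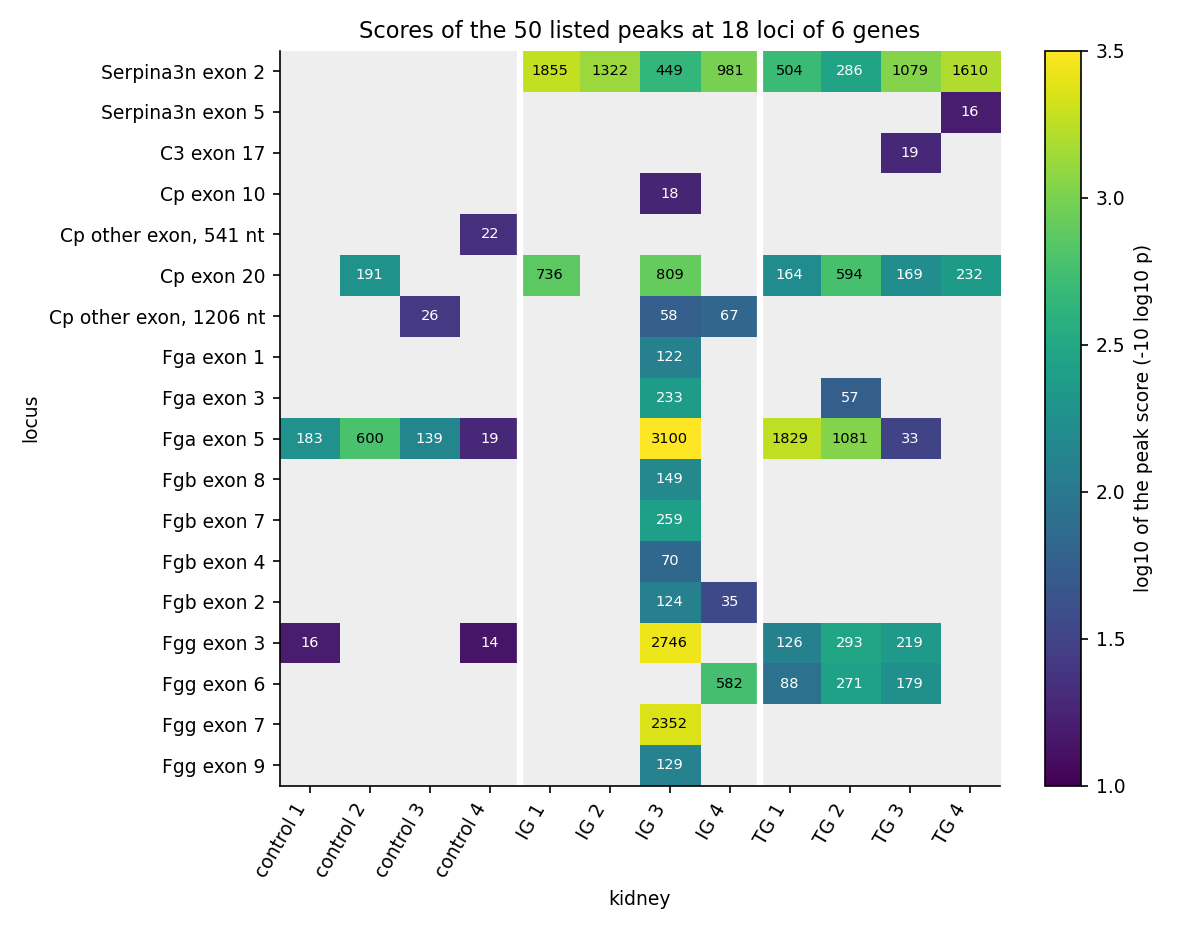
Score of each of the 50 listed peaks (rounded, colour on a log10 scale) at the 18 loci (rows) in the 12 kidneys (columns); grey cells are kidneys with no listed peak. Serpina3n exon 2 fills the 8 IG and TG columns, and the column of IG 3 holds 14 of the 50 peaks, 10 of them in Fga, Fgb and Fgg.

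Fibrinogen is made of 3 chains, Aα, Bβ and γ, which Fga, Fgb and Fgg encode side by side on chromosome 3, and thrombin turns it into fibrin. By listed peaks these genes did not follow the injury label. The study, with diffReps and RNA-seq, reports all 3 as hypermethylated and upregulated in IvC and the reverse in TvI. Neither measure was examined here. Control kidneys 1 to 4 had 2, 1, 1 and 2 peaks in the 3 genes, IG kidneys 0, 0, 10 and 2, and TG kidneys 3, 4, 3 and 0. The group means were 1.5 ± 0.577, 3.0 ± 4.76 and 2.5 ± 1.73 peaks (SD, n = 4 each). IG 3 held 35.7% of all 28 fibrinogen peaks. Without it the IG mean fell to 0.667 peaks, below the control mean, and the direction of the IvC difference turned. The TvI difference, -0.5 peaks, turned as well, to 1.83 without IG 3 and to 0.333 without TG 4.

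Fga exon 5 (chr3:83030833-83032377) was the fibrinogen locus found in most kidneys, and its pattern ran against that of Serpina3n. It was listed in 4 of 4 controls, 1 of 4 IG kidneys and 3 of 4 TG kidneys. The control scores were 182.82, 599.54, 139.12 and 19.03. IG 3 had a score of 3100, the value shared by 1086 peaks and exceeded by 79, so it may be capped and is not compared in size with the others. The other 3 IG kidneys had no peak. TG 1, 2 and 3 had 1829.01, 1081.4 and 32.6, and TG 4 none. The locus took in all 1147 nt of the fifth exon of the transcript with the longest coding sequence and continued past the end of a longer form of this exon. It had 35 RRACH motifs and 21 on the opposite strand, and of 709 loci of like length 5.08% had at least 35 on the gene's strand. Each peak began at the exon's first base, and none ended at an annotated end.

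Elsewhere in Fga, exon 3 was listed in IG 3 at 233.37 and in TG 2 at 57.28, and a peak over exon 1 was listed in IG 3 alone at 122.31. Exon 6, with 927 nt, had none. Fgb was listed only in IG kidneys. IG 3 had peaks in exons 2, 4, 7 and 8 with scores of 123.73, 69.89, 258.7 and 149.02, and IG 4 had one in exon 2 at 35.43.

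In Fgg the peaks lay in 3 short coding exons and in the last exon, which holds the stop codon. Exon 3 (184 nt) was listed in control 1 at 15.91 and control 4 at 13.73, in IG 3 at 2745.96, and in TG 1, 2 and 3 at 126.01, 292.63 and 218.51. The 2 control scores were near the lower limit of the lists, and the TG scores were all higher than them and lower than that of IG 3. Exon 6 (134 nt) was listed in no control, in IG 4 at 582.1, and in TG 1, 2 and 3 at 88.32, 270.7 and 178.82. Exons 7 and 9 were listed in IG 3 alone, at 2352.39 and 129. Among the 3884 loci listed in 1 kidney only, Fgg exon 7 had the sixth highest score. Exon 3 had 7 RRACH motifs in its 184 nt, a number reached by 4.36% of 1331 loci of like length, whereas exon 6 had 2, the median of its length class.

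**Figure D3:**
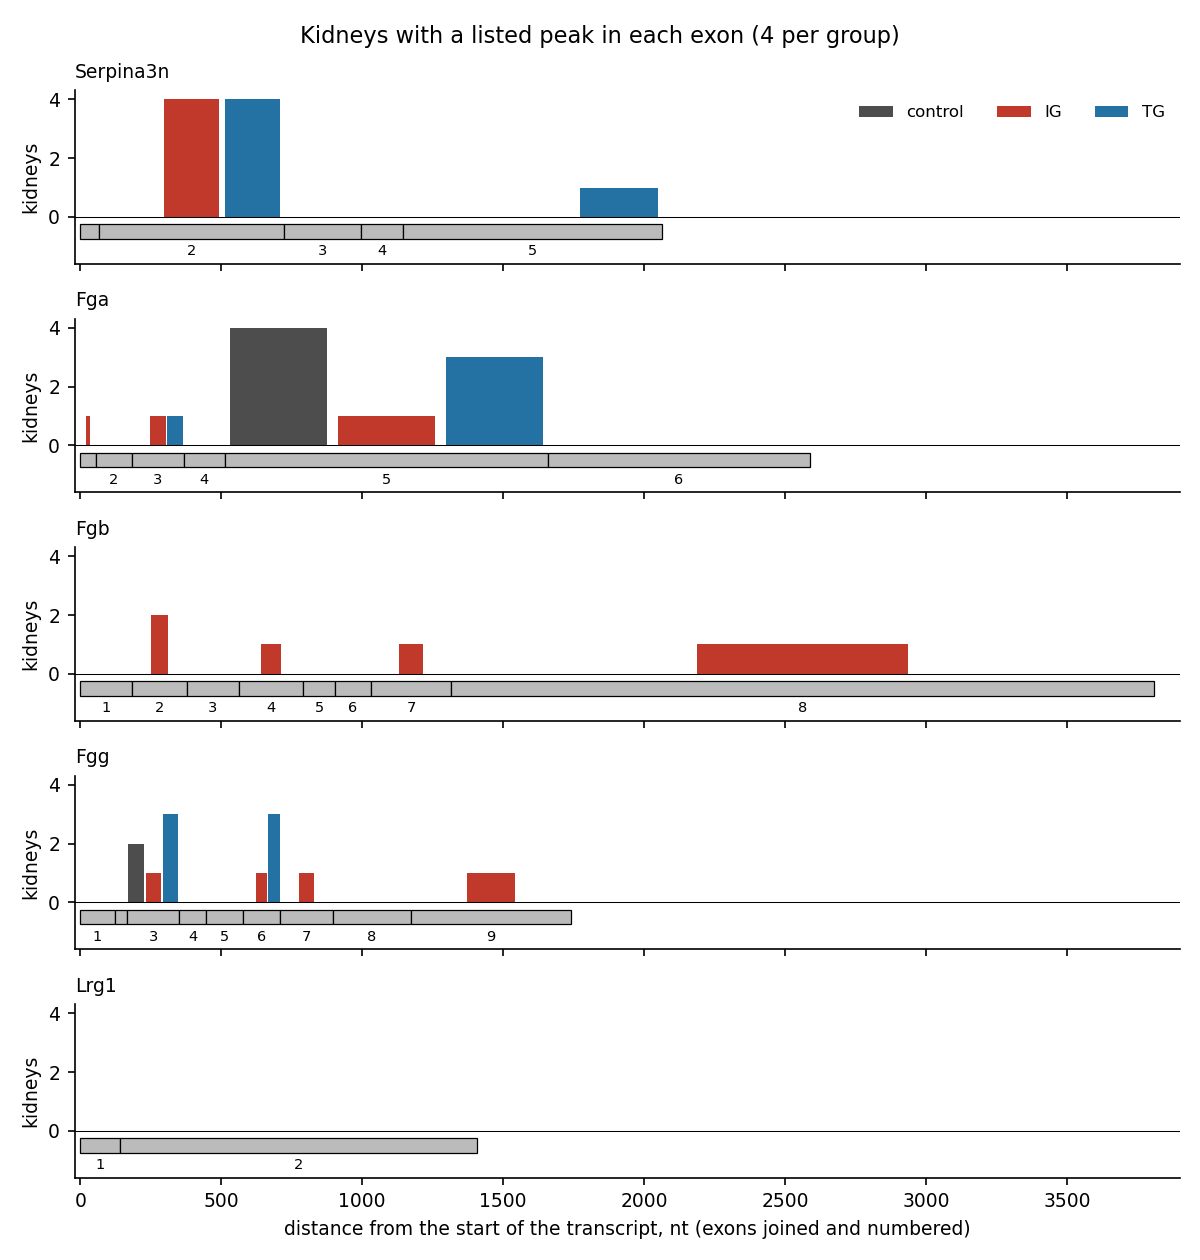
Exons of Serpina3n, Fga, Fgb, Fgg and Lrg1 joined in transcript order (grey boxes to scale, in nt from the transcript start), with the number of kidneys of each group that had a peak in the exon; the 3 bars stand side by side within their exon and do not mark a place in it. Serpina3n has 4 IG and 4 TG kidneys at exon 2, Fga has 4 controls at exon 5, Fgb has IG kidneys alone, and Lrg1 has none.

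Hepatocytes are the main source of plasma fibrinogen, and the hepatocyte list gave no peak to IG 3. One gene of 7, Ttr, had a peak, in 1 control, 1 IG kidney (IG 1) and 1 TG kidney, so that each group ranged from 0 to 1 listed genes, and Alb, Apoa1, Apoa2 and Ahsg had none in the 12 kidneys. Of the loci found in a single IG kidney, whatever the other groups, IG 3 had 1482 (12.5% of all IG loci), the most of the 4 IG kidneys. Among the member loci listed in IG, 10 of 15 were listed in IG 3 and in no other IG kidney. The part of that kidney's longer list in these peaks was not tested.

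The 3 complement genes among the 9 were almost unlisted. C3, the central component on which all activation routes converge, had 1 peak, in its 201-nt exon 17 in TG 3, at a score of 19.16. C4b, the component of the classical and lectin routes, had none in its 41 exons, the longest of which has 248 nt. Cfb, the protease precursor of the alternative route, had none in 18 exons, the longest of 463 nt. C4b shares 17.2% of its 100-base exon stretches with C4a, which also had no peak, and Cfb shares 61.8% with Gm20547, so reads of these could be split between annotations. Among genes with a longest exon within 10% of that of C3, C4b and Cfb, 13.0%, 13.5% and 24.6% had a peak in any kidney, whatever their expression.

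Lrg1, a secreted leucine-rich repeat glycoprotein of the acute phase, also had no peak. Most of its transcript is 1 exon of 1267 nt, whose coding part has 10 RRACH motifs and 1 GGACT, and 37.3% of genes with a longest exon of like length had a peak. Serpina3n, with a longest exon of 918 nt, belongs to a class in which 28.0% of genes had one. Over the 9 genes, 16 of 150 exons of the transcripts with the longest coding sequence had a listed peak. Of the 50 peaks 32 spanned an annotated exon exactly (64%), against 64.5% of all listed peaks, so their resolution was that of the exon. Of the 150 exons, those with a peak had a median length of 214.5 nt and 19.0 RRACH motifs per kb. The 134 without a peak had 133 nt and 15.9 per kb.

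Ceruloplasmin (Cp), a copper-carrying ferroxidase of plasma, differed from Serpina3n in being listed in all groups, in 3 controls, 3 IG kidneys and 4 TG kidneys. Its main locus was an alternative last exon (chr3:20006550-20007609, 1060 nt, wholly 3′ UTR in the transcript with the longest coding sequence). That exon was listed in control 2 at 191.28, in IG 1 and 3 at 735.87 and 808.52, and in TG 1 to 4 at 163.84, 594, 168.69 and 231.61. The 2 IG scores were above all others at this locus, and the TG scores spanned the single control score. It had 29 RRACH motifs, and 1.42% of 916 loci of like length had as many. A locus further downstream (chr3:20008540-20009745) began at the first base of another last exon and ran past the annotated gene end at 20009145. It was listed in control 3 at 25.87 and in IG 3 and 4 at 57.67 and 67.39, and in no TG kidney. The remaining Cp peaks were in exon 10 in IG 3 at 18.31 and in control 4 at 22. The latter peak (chr3:19992509-19993049) began at the start of one more alternative last exon and did not end at an annotated end.

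Over the member loci, 13 of the 16 with a peak in IG or control kidneys were listed in more IG than control kidneys and 3 in fewer, with a median difference of 1 kidney. Among all 16072 loci the median was 0, and 26.3% were listed in more IG kidneys and 46.3% in fewer. Of the 13, 11 differed by 1 kidney. Of all 16, 10 were listed in IG 3 alone within IG. Among those 10 were Fga exon 5 and Fgg exon 3, which had fewer IG than control kidneys. In TvI, 6 of 17 member loci were listed in more TG kidneys, 2 in as many and 9 in fewer, with a median of -1, against 22.6%, 34.0% and 43.4% of all loci and a median of 0. IvC and TvI share the IG kidneys, so a locus listed in IG 3 alone counts in both.

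**Figure D4:**
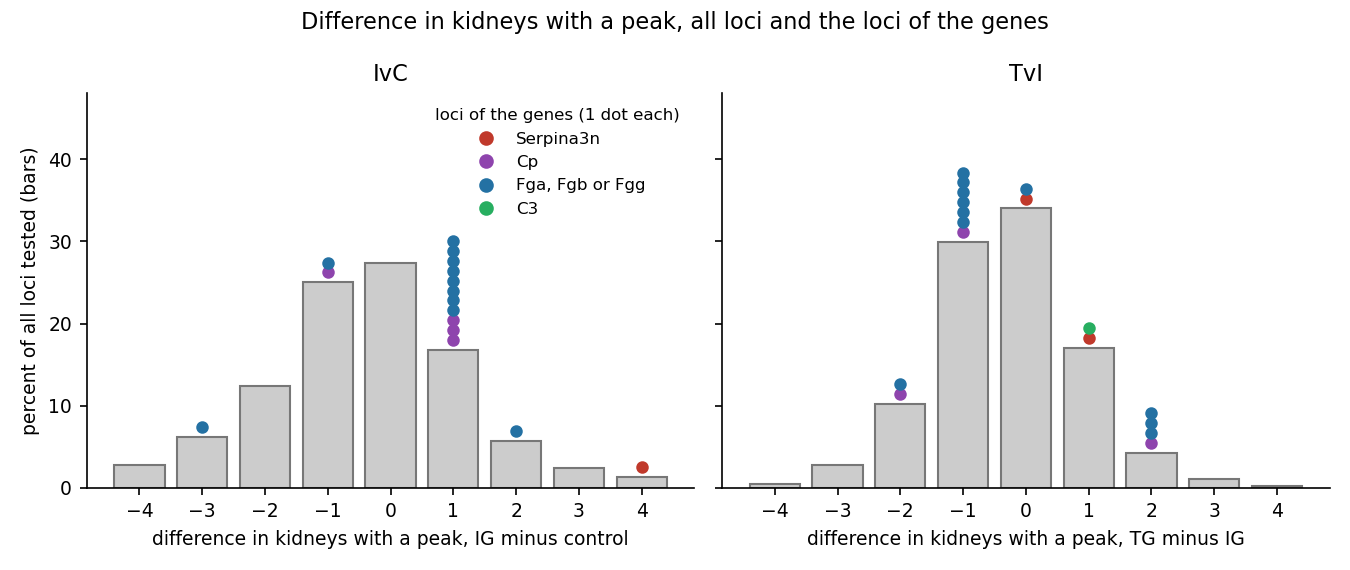
Difference in the number of kidneys with a peak, IG minus control (left) and TG minus IG (right), for all loci tested (bars, percent) and for the loci of the 9 genes (1 dot each, stacked above its bar and not on the percent scale). Serpina3n exon 2 lies at 4 in IvC, where 1.35% of all loci lie, and 11 of the 16 member loci lie at 1.

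Peaks in the wider acute phase list were sparse. Of 24 further acute phase genes 5 had a peak in any kidney: haptoglobin (Hp), which binds free haemoglobin, in 1 IG kidney and 2 TG kidneys with a top score of 853.94, Saa3 in 2 TG kidneys, Ttr, also in the hepatocyte list, in 1 kidney of each group, and Fn1 and Steap4 in 1 kidney each. Serum amyloid genes Saa1 and Saa2, Lcn2, Orm1 to Orm3 and Hpx had none. Control kidneys had 0 to 1 of these genes, IG kidneys 0 to 1 and TG kidneys 0 to 3. None of the 24 genes was gained or lost in any comparison, where 1.90% of genes were gained and 3.16% lost in IvC, 0.255% and 0.510% in TvI, and 1.51% and 4.38% in TvC.

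Among 35 further complement genes 13 had a peak and none was called as a gene in any comparison. Over all genes 1.90% were gained and 3.16% lost in IvC, 0.255% and 0.510% in TvI, and 1.51% and 4.38% in TvC. Clu (clusterin) and Cr1l, which encode inhibitors of the cascade, were listed in all 12 kidneys. One Cr1l locus (chr1:195103788-195103907) was absent from the 4 controls and listed in 4 IG and 4 TG kidneys, with scores of 14.91 to 146.16, so that at the level of loci it was called gained in IvC and TvC like Serpina3n exon 2. Of all loci 1.35% were gained in IvC and 1.00% in TvC. Serping1, the inhibitor of C1, and C1ra, a protease of the C1 complex, were listed in 4 controls and in 2 IG kidneys each. In TG they were listed in 1 and 2 kidneys. The terminal component C7 was listed in 1, 3 and 1 kidneys.

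In the coagulation and fibrinolysis list 10 of 29 genes had a peak, in 5 to 7 genes per control, 1 to 6 per IG kidney and 2 to 4 per TG kidney. Factor VIII (F8) was listed in 4 controls and in no IG or TG kidney, a loss in IvC and TvC, and kininogen (Kng1) in 4 controls, 2 IG kidneys and no TG kidney, a loss in TvC. Of the genes with a peak, 1 of 10 was lost in IvC and 2 of 8 in TvC, against 3.16% and 4.38% of all genes. Factor V (F5) was listed in 3, 0 and 0 kidneys. Plat, which encodes tissue plasminogen activator, was listed in all 12.

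Of 24 genes of the signalling upstream of the acute phase response 15 had a peak, in 10 to 12 genes per control, 5 to 9 per IG kidney and 4 to 8 per TG kidney. Cebpa, a liver-enriched transcription factor, was listed in 4 controls and in no IG or TG kidney, the one gene of this list called, as lost in IvC and TvC. One locus of Jak1, a kinase of the interleukin-6 pathway, was lost in both as well, from 4 controls to no IG or TG kidney, and the gene as a whole was listed in 4, 2 and 2 kidneys. Cebpa was 1 of 15 genes, where 3.16% of all genes were lost in IvC and 4.38% in TvC. For all loci these shares were 2.73% and 3.73%. Cebpb was listed in 4, 4 and 3 kidneys, Cebpd in 4, 2 and 1, and the interleukin-6 receptor Il6ra in 4, 4 and 3. Jak2 and Il1r1 were listed in all 12. In this list and the coagulation list fewer genes were listed in the groups with shorter peak lists, and the part of list length in that was not tested.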

How the data were processed

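Kidney poly(A) RNA of 12 mice was profiled by MeRIP-seq. The authors trimmed reads with cutadapt 1.9.3, aligned them to mm10 with HISAT2 2.0.4 and called peaks with MACS in each library. The peak threshold, the MACS version and its control are not given in the sources used here. The authors deposited 1 list of exonic peaks per kidney with a score, -10 times the log10 of the p-value. The 12 input libraries and read depth were not analysed here, so peaks are not set against RNA level. Samples were grouped by their labels, 4 mice a group by the study's methods.

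Same-strand peaks sharing 1 base or more were joined into loci over all kidneys, and loci and genes were assigned with GENCODE M21. Presence was compared by Fisher's exact test with Benjamini-Hochberg adjustment over all loci with a peak in either group, using Python 3.11.15 and scipy 1.17.1. The joining and calling were tested on simulated data. Motifs and reference bases came from RefSeq's GRCm38.p6 genome, and transcript copies were sought with blastn 2.17.0. The 9 genes, the gene lists and the tests were chosen with earlier results of these data known. Every score is given for loci of the 9 genes listed in 3 or 4 kidneys of a group. List genes were named where control and IG, or IG and TG, differed by 3 kidneys, or where all 12 had a peak, and the 5 loci most like Serpina3n exon 2 are given. Some list genes are not reported here by name. Other genes named were chosen after their values were seen.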

Additional observations from a re-analysis of the deposited data

Results flagged for a closer look

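In groups of 4 kidneys the highest or lowest value was set against Dixon's 95% critical value, which chance passes in about 1 of 20 groups for continuous values. The gaps describe single kidneys and compare no groups. Of 23 sets examined 9 passed, 8 of them with a gap of 1, the value a small whole-number count gives whenever 3 kidneys are equal and 1 differs. In controls these were the peaks over the 9 genes, where control 4 had 3 and the others 2, and the peaks in Cp, alone and summed with Serpina3n and Lrg1, where control 1 had none. In IG it was Fga, with 3 peaks in IG 3 and none in the other 3. In TG they were Serpina3n, alone and summed with Lrg1 and Cp, with the additional exon 5 peak of TG 4, C3 with the single peak of TG 3, and Fgg with none in TG 4 against 2 in each of the others. The score of the last Cp exon in TG had a gap of 0.842, from TG 2 at 594 against 163.84 to 231.61.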

How the results depend on the processing

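With every list cut to the 5901 highest scores, 446 loci were called in TvC, with 244 gained and 202 lost, against 152 and 566 in the full lists. With peaks under the median score of 71.3 left out, 346 loci were called in IvC, 386 in TvC and 51 in TvI. The call at Serpina3n exon 2 stayed under both. Neither cut could change it, since its lowest score was 286.03 and no control had a peak. Under both, Fgg had no control kidney, Cp 1 in place of 3 and Fga 3 in place of 4. At the median cut Fga also had 2 TG kidneys in place of 3, and C3 had no kidney. Fgb then had 1 IG kidney in place of 2, and Cp 2 in place of 3. With the replicate numbers as a block (exact sign-flip test over 4 pairs, smallest p 0.125) calls fell to 0 in each comparison, the member loci included, by construction. The samples share only a number: correlations of same-numbered deviations ran from -0.029 to 0.110. Leaving out 1 kidney at a time gave 136 to 175 loci called in TvI, since fewer kidneys then have to concur. It gave 1 to 2 member loci called in IvC and 1 to 2 in TvC. Without IG 3, Fga exon 5 was lost in IvC. Without control 2, Cp exon 20 was gained in TvC, and without TG 4, Fgg exon 6. Other joining rules left the member calls the same. RefSeq exons (added after the data were seen), either strand and exon share left all kidney counts per gene and peak sums within their limits. Scores cannot separate RNA level from methylation, a kidney below the caller's threshold is not shown to lack m6A, and at 4 kidneys a group no call passed adjustment.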
